A study of Mus musculus with 5 samples.

Results

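The 8 genes described here encode transcription factors that T cells use throughout their life. Ets1, Fli1 and Elf1 belong to the Ets family. Runx1 and Cbfb form a Runx complex, Ikzf1 (Ikaros) and Ikzf3 (Aiolos) are Ikaros family zinc finger proteins, and Bcl11b is a zinc finger factor of T cell identity. They were read through H3K27ac, the acetylation of histone H3 lysine 27 that marks active promoters and enhancers, at every peak overlapping the gene's GENCODE M21 span or the 50 kb on either side of it. This took 324 of the 124158 peaks of the series, counting once the 3 peaks that the neighbouring windows of Fli1 and Ets1 share. The rule uses gene names and coordinates.

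The cells were regulatory T (Treg) cells, sorted as CD3+CD4+Foxp3-YFP+ from the large intestine of C57BL/6 mice at 2 weeks of age, and the assay was CUT&Tag. In this assay an antibody brings a transposase to the histone mark, and the transposase cuts sequencing adapters into the DNA beside it. Ctrl mice were Foxp3CreSetd2flox/+, with a Cre driven by Foxp3 and 1 Setd2 allele that it can delete. KO mice were Foxp3CreSetd2flox/flox, in which the same Cre can delete both alleles. Each group had 2 libraries of 60000 cells, each pooled from several mice of both sexes. An IgG library was not analysed here. Setd2 writes trimethylation of H3 lysine 36 along transcribed genes, and the comparison asks how H3K27ac is distributed when its gene is targeted. H3K27ac at Setd2 itself is no check of the deletion, and the peaks at the Setd2 promoter summed to 26.2, 24.998, 27.2 and 33.3 CPM in Ctrl 1, Ctrl 2, KO 1 and KO 2.

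Library totals were 2395002, 3630447, 3007444 and 4712473 counts in Ctrl 1, Ctrl 2, KO 1 and KO 2. CPM values here and below are counts per 1000000 counts of each library's total in tested peaks, the total being corrected with edgeR's TMM factor. KO was compared with Ctrl by edgeR's quasi-likelihood test with Benjamini-Hochberg adjustment over all features. Errors of log2 fold changes are standard errors from the fit, with n = 2 libraries per group. The labelled cell type was checked at promoters. All 5 Treg markers (Foxp3, Il2ra, Ctla4, Ikzf2 and Tnfrsf18) and all 6 T cell markers had promoter peaks, summing to 760 to 1116 CPM and 1056 to 1715 CPM, whereas the lists of 2 CD8, 5 B cell, 5 myeloid, 5 epithelial and 4 erythroid markers summed to between 6.25 and 26.7 CPM in every library, with Cd8a, Ms4a1, Pax5, Csf1r, Lyz2, Itgam, Cdx1, Cdx2, Gata1 and Hbb-bt at 0. The 5 stromal and endothelial markers reached 80.5 to 109 CPM, nearly all of it at Pecam1, while Col1a1 and Col1a2 were at 0.

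Ets proteins bind DNA through a winged helix domain that reads a GGAA core, and Ets1, Fli1 and Elf1 occupy many of the same sites in lymphocytes. Runx proteins carry the runt DNA-binding domain, and Cbfb binds no DNA itself but holds the runt domain on its site. In Treg cells the Runx and Cbfb complex supports Foxp3, while Ikaros and Aiolos recruit chromatin remodelling complexes and Bcl11b keeps the T cell and Treg programs in place.

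By total CPM over the 4 libraries, 7 of the 8 windows were among the most strongly acetylated of the genome, while that of Cbfb was near the middle. The windows ranked 10th (Ets1), 19th (Bcl11b), 35th (Ikzf1), 78th (Runx1), 95th (Ikzf3), 154th (Elf1), 343rd (Fli1) and 8981st (Cbfb) of 17694 tested windows. Total CPM favours long windows with many peaks, so levels were compared per kb of peak. On that scale Ets1 had 16.7, Bcl11b 16.6, Ikzf1 14.8, Elf1 14.1, Runx1 12.9, Ikzf3 12.9, Fli1 12.8 and Cbfb 9.69 CPM per kb, against a median of 10.2 over all windows. Per kb, 97.3% of windows lay below Ets1, 97.2% below Bcl11b, 92.6% below Ikzf1 and 89.1% below Elf1. The share was 81.2% for Runx1, 81.1% for Ikzf3, 80.7% for Fli1 and 42.4% for Cbfb. The 4-library ranges of neighbours in this order overlapped in every case, so the order among neighbours is not resolved. The range of Cbfb, 8.34 to 11.1 CPM per kb, lay below the whole range of Ets1, Bcl11b, Ikzf1, Elf1 and Runx1. Peaks covered 43.2% of the Ets1 window, 44.2% of that of Ikzf1 and 42.4% of that of Bcl11b, but 7.53% of the Cbfb window.

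**Figure D1:**
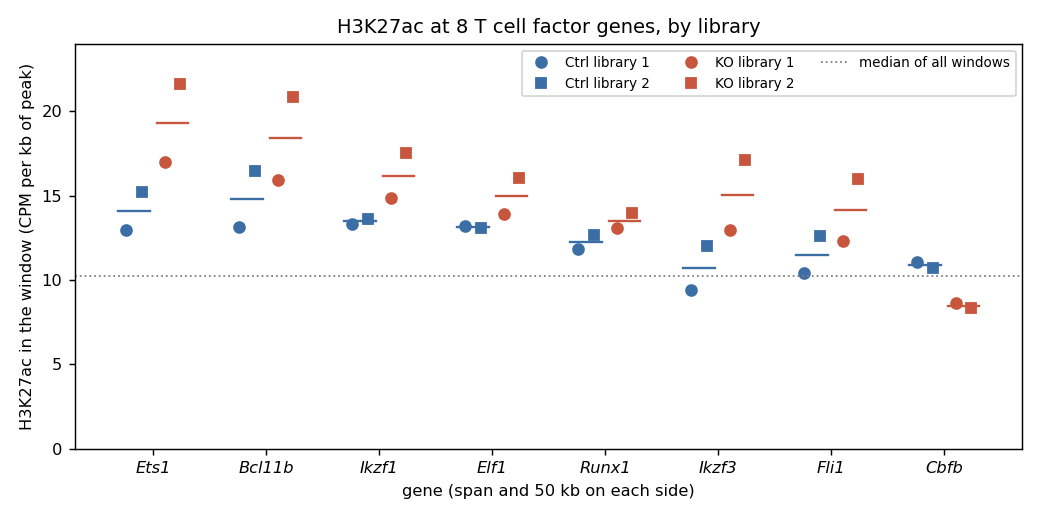
H3K27ac in each gene window (CPM per kb of peak) in Ctrl (blue) and KO (red) libraries; circles are library 1, squares library 2, short lines group means, and the dotted line the median of all windows, 10.2. KO 2 is the highest library in 7 windows, whereas both KO libraries lie below both Ctrl libraries at Cbfb.

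Broad domains held a large share of the acetylation of the 7 genes other than Cbfb. Peaks of 5 kb or more numbered 1267 in the whole set and 25 in these windows, with 3 to 5 in each window except that of Cbfb, whose widest peak measured 2412 bp. They held 53.1% to 58.2% of the counts of the 8 windows in the 4 libraries, against 13.9% to 19.1% of all counts in the set. By gene the share was highest at Ikzf1, with 63.5% to 71.3%, and it was lower at Elf1, with 37.7% to 41.8%, and at Ikzf3, with 36.0% to 37.8%, where most counts lay in narrower peaks. The Ets1 domain of 31785 bp was the 3rd widest of all 124158 peaks. The widest peaks of Ikzf1 (20617 bp), Runx1 (18852 bp), Bcl11b (16962 bp), Ikzf3 (12716 bp), Fli1 (9352 bp) and Elf1 (8243 bp) ranked 13th, 25th, 39th, 110th, 248th and 344th.

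**Figure D2:**
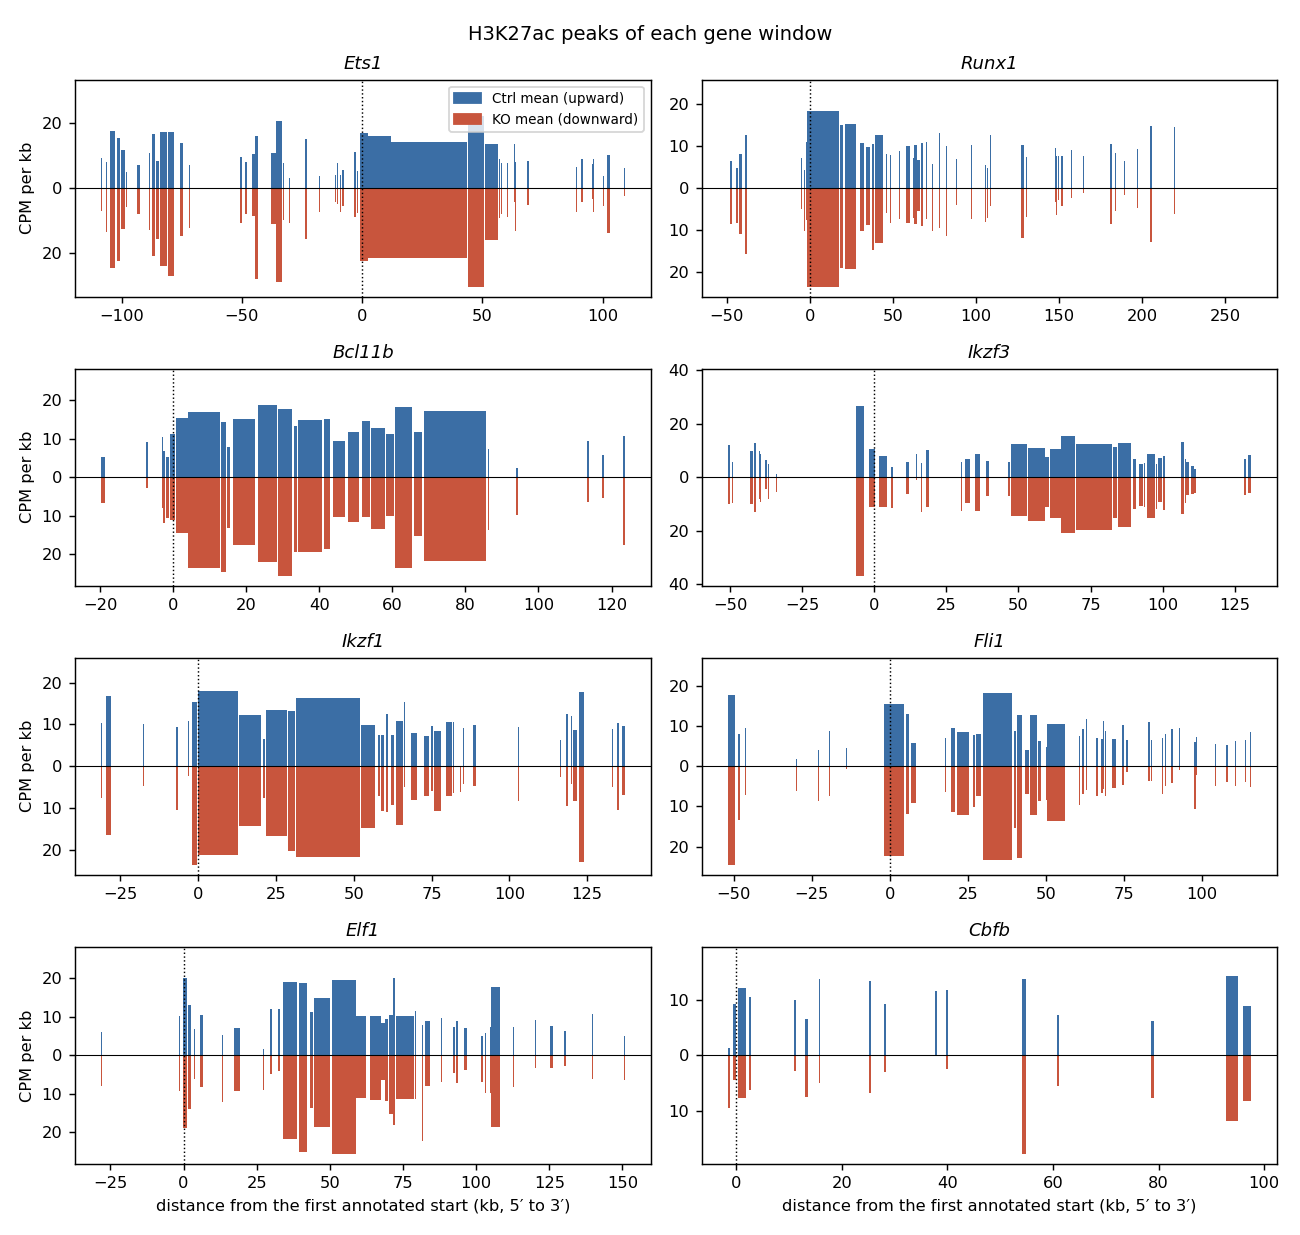
Peaks of each window drawn to scale by distance from the first annotated start (kb, dotted line), with bar height the mean CPM per kb in Ctrl (upward, blue) and KO (downward, red). Ets1, Ikzf1 and Runx1 carry wide domains from the start into the gene, the widest peaks of Ikzf3 and Bcl11b lie 76.2 and 77.1 kb past the start, and Cbfb has no peak of 5 kb or more.

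No window of the 8 genes passed the adjusted threshold, and every member peak had an adjusted p of 0.998 or more by edgeR. In 7 of them the fitted level was higher in KO and in Cbfb it was lower. The KO pair was wholly above the Ctrl pair in 5 windows (Ets1, Elf1, Runx1, Ikzf1 and Ikzf3) and wholly below it in 1 (Cbfb), where 10.6% and 16.1% of all tested windows did so. At an adjusted p under 0.05 the percentage of windows called was 0, and 1.94% had an unadjusted p under 0.05 with edgeR, none of them a member. DESeq2 also called 0 windows, and 27 upward and 231 downward passed 0.05 without adjustment. The median log2 fold change, KO minus Ctrl, was 0.28 over the 8 members and 0.00 over all windows. Of the members, 7 were among the 1770 windows of the top decile of CPM, of which 88.4% were higher in KO and 25.3% had both KO libraries above both Ctrl libraries, with a median log2 fold change of 0.20. The members' direction was that of most windows in this class.

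The member total was lowest in Ctrl 1 and highest in KO 2. Library totals had the same extremes, with 2395002 counts in Ctrl 1 and 4712473 in KO 2. So had the share of all counts in peaks of 5 kb or more, with 13.9% and 19.1%. The part of library depth in the members' values was not tested. Centred on its mean, the log2 CPM of the 8 windows summed was -0.24, -0.06, 0.00 and 0.30 in Ctrl 1, Ctrl 2, KO 1 and KO 2, so that Ctrl 2 and KO 1 lay close together and KO 2 stood apart. Without KO 2 the median member log2 fold change was 0.10, and without KO 1 it was 0.43. Offsets fitted to the trend of each library with peak abundance brought the median to 0.07 and left 6 of the 8 windows higher in KO, with Runx1 at -0.02. The promoter sums of the T cell markers, 1056, 1373, 1343 and 1715 CPM, and of the Treg markers, 760, 839, 880 and 1116 CPM, were also highest in KO 2. Their part in the members' values was not tested, and in pooled cells a change in the number of marked cells and in the mark per cell cannot be told apart.

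**Figure D3:**
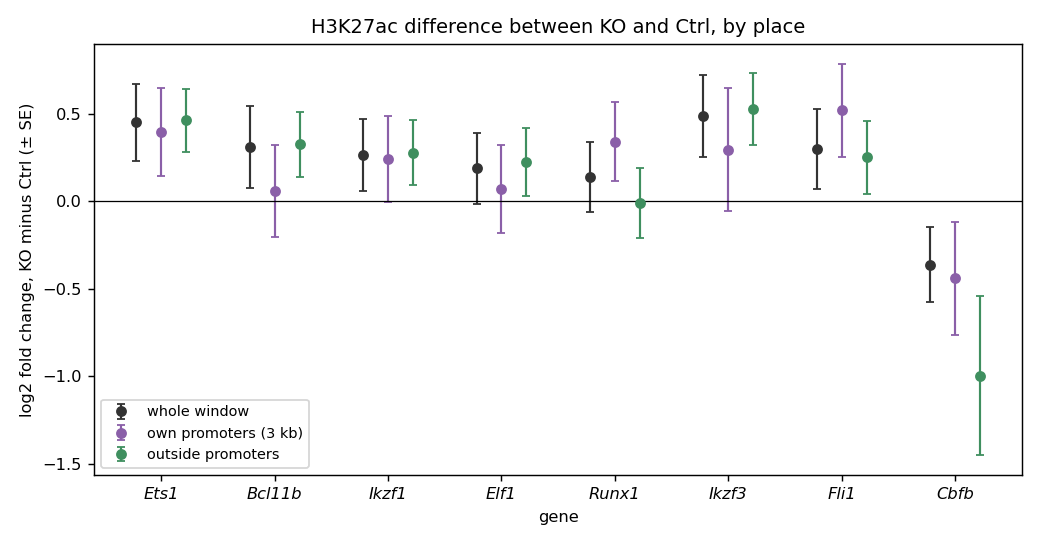
Log2 fold change, KO minus Ctrl, with its standard error, for the whole window (black), the gene's own promoter peaks (purple) and the peaks outside promoters (green). Ets1 and Ikzf3 are highest outside promoters, Runx1 is near 0 there and higher at promoters, and Cbfb is below 0 in all 3.

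Promoters were read as the peaks within 3 kb of any start of the gene. Fli1 had a promoter log2 fold change of 0.52, Ets1 0.40, Runx1 0.34, Ikzf3 0.30, Ikzf1 0.24, Elf1 0.07, Bcl11b 0.06 and Cbfb -0.44, and each had an adjusted p of 0.999 by edgeR. Their median was 0.27, beside 0.07 over all promoters. At Ets1, Fli1 and Runx1 the KO pair was wholly above the Ctrl pair and at Cbfb wholly below, where 17.8% and 8.92% of all promoters did so. The percentage of promoters called was 0 by edgeR, 1.29% had an unadjusted p under 0.05, and DESeq2 called 0, with 62 higher and 27 lower at that level.

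Outside promoters, Ikzf3 was higher in KO by a log2 fold change of 0.53 ± 0.20, Ets1 by 0.46 ± 0.18, Bcl11b by 0.33, Ikzf1 by 0.28, Fli1 by 0.25 and Elf1 by 0.23. Runx1 was at -0.01 and Cbfb at -0.996 ± 0.45. For Ikzf3, Ets1 and Cbfb the unadjusted p was under 0.05, and their adjusted p by edgeR was 0.738, 0.738 and 0.787. Of all sums outside promoters, 0.374% passed an unadjusted p of 0.05 upward and 5.91% downward, and among the 8 members edgeR put 2 in the higher class and 1 in the lower. With DESeq2 Ets1 no longer passed this level, and with the abundance offsets, without Ctrl 1 or without KO 2 neither Ets1 nor Ikzf3 did. The KO pair was wholly above the Ctrl pair for Ets1, Elf1, Ikzf1 and Ikzf3 and wholly below it for Cbfb, against 9.01% and 25.7% of all sums. The percentage called was 0 by edgeR, and DESeq2 called 0, and 36 upward and 942 downward passed 0.05 without adjustment. The member median was 0.27, and that of all genes was -0.13. All genes include many of lower level than the members, 7 of which lay in the top decile of window CPM. Of whole windows in that decile 88.4% were higher in KO. Neither these sums nor the promoter sums were compared with those of genes of like level.

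Of the 324 member peaks, 250 had at least 10 counts in at least 2 libraries and were tested. Among these 153 were higher and 97 lower in KO, with a median log2 fold change of 0.17, beside -0.01 for all 74550 tested peaks. None was called, and the 1 called peak of the whole set, 0.00134% of those tested, lay elsewhere. DESeq2 called 0 peaks, and 445 upward and 1023 downward passed 0.05 without adjustment. In 79 member peaks both KO libraries were above both Ctrl libraries and in 28 they were below, which is 31.6% and 11.2% of those tested, beside 16.9% and 16.4% of all peaks. Without adjustment, 11 member peaks passed 0.05 upward and 1 downward, against 1.45% and 2.79% of all peaks. In this fit edgeR estimated an infinite prior, so each peak's own spread between libraries did not enter its p.

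Wide and narrow member peaks had different medians, as they did in the whole set. Each of the 25 member peaks of 5 kb or more had a fitted value above 0, from 0.05 to 0.68 on the log2 scale with a median of 0.34. Of all 1267 such peaks 88.8% were higher, with a median of 0.26. The 134 tested member peaks under 1 kb had a median of -0.01, with 63 higher and 71 lower, where all peaks of that width had a median of -0.09. In the middle class, 1 kb to under 5 kb, 65 of 91 member peaks were higher with a median of 0.27, beside 0.06 for all. Leaving out KO 2 left 21 of the 25 wide peaks higher, and the abundance offsets left 22, with a median of 0.09. Within genes, the narrow peaks of Ikzf1 had a median of -0.46, those of Runx1 -0.37 and those of Elf1 -0.14, while the narrow peaks of Bcl11b were at 0.70 and those of Ikzf3 at 0.22.

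**Figure D4:**
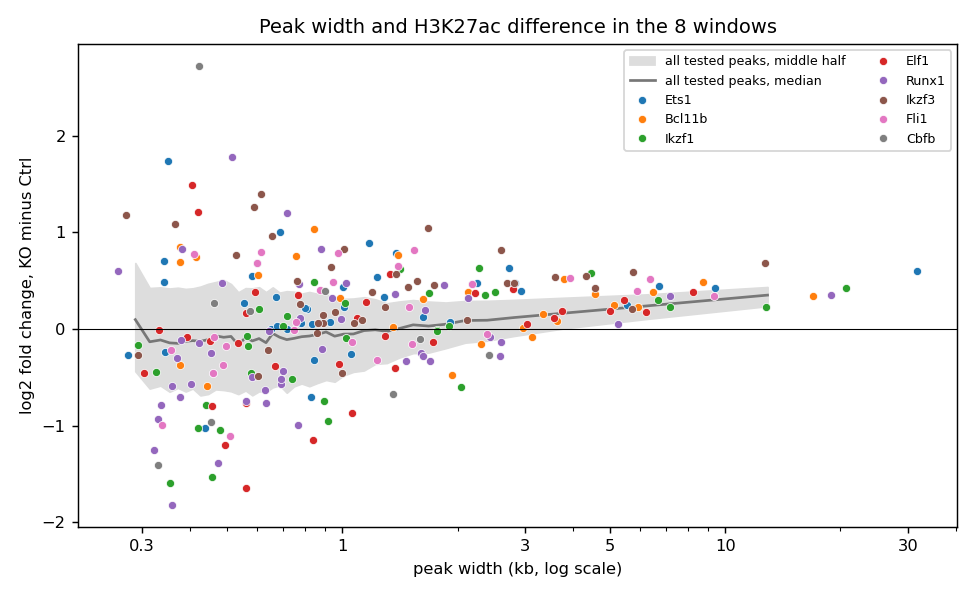
Log2 fold change, KO minus Ctrl, of each tested member peak (coloured by gene) against its width in kb on a log axis; the grey line and band are the median and middle 50% of all tested peaks in width bins. Every member peak of 5 kb or more lies above 0, as do most such peaks of the set, and narrow peaks scatter on both sides.

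Ets1 is the Ets factor most closely tied to T cell development and survival. Its window (chr9:32586221-32807820, mm10) held 50 peaks and read 1244 and 1457 CPM in Ctrl and 1627 and 2069 CPM in KO. The groups did not overlap, and the log2 fold change was 0.45 ± 0.22 (edgeR adjusted p = 0.99998). The annotated span begins 59.8 kb before the start of the basic transcripts used here. From 2.47 kb past that start, peaks of 9404 and 31785 bp followed each other with a gap of 51 bp, making a domain of 41.2 kb over introns and exons of the gene. The larger of them, chr9:32707949-32739733, had 395 and 512 CPM in Ctrl and 565 and 806 CPM in KO. Both KO libraries were higher, and this was also the Ets1 peak with the smallest p, at a log2 fold change of 0.60 ± 0.23 (edgeR adjusted p = 0.998). Without KO 2 its fold change was 0.32.

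The 9404 bp peak counted as the main promoter peak of Ets1. It read 129 and 174 CPM in Ctrl and 171 and 237 CPM in KO, so the groups overlapped. The peak over the start, chr9:32695341-32698277, had 51.6 and 49.4 CPM in Ctrl and 58.9 and 73.8 CPM in KO, without overlap. Another group of peaks in the Ets1 window lay before the gene, in the 93.4 kb that separate Fli1 and Ets1, which are transcribed away from each other. By the starts of basic transcripts, the nearest start of 12 of its 14 peaks was that of Fli1. The Ets1 start used for this lies 59.8 kb inside the annotated span, so distances to the gene spans can rank the genes differently. Of the 14 peaks 3 are also in the Fli1 window, and position alone assigns none of them to a gene. The 14 peaks covered 17.3 kb and summed to 218 and 270 CPM in Ctrl and 294 and 377 CPM in KO. Of these, chr9:32615200-32617924 had 36.2 and 58.6 CPM in Ctrl and 63.7 and 83.4 CPM in KO (unadjusted p under 0.05). Peaks outside the gene took 19.7% to 21.5% of the Ets1 window counts, and no other protein-coding gene overlaps this window.

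Fli1, an Ets factor of blood and endothelial cells, lies head to head with Ets1. Its window (chr9:32372204-32592861) read 570 and 691 CPM in Ctrl and 675 and 875 CPM in KO. Ctrl 2 and KO 1 were nearly level, the groups overlapped, and the log2 fold change was 0.30 ± 0.23. Its promoter peak of 6362 bp, chr9:32537039-32543400, did not overlap between groups, with 88.7 and 110 CPM in Ctrl and 117 and 167 CPM in KO (log2 fold change 0.52 ± 0.27). The strongest peak outside the promoter, 9352 bp in an intron at chr9:32502472-32511823, had 152 and 189.9 CPM in Ctrl and 173 and 261 CPM in KO. The smallest p of the locus belonged to a neighbouring intronic peak of 1535 bp (chr9:32499314-32500848), with 15.4 and 23.8 CPM in Ctrl and 33.2 and 36.7 CPM in KO. The Fli1 promoter took 15.6% and 15.8% of the window counts in Ctrl and 17.3% and 19.1% in KO.

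Elf1, another Ets factor of lymphocytes, has a pair of starts 34.5 kb apart. Its window (chr14:79431194-79632494) read 813 and 809 CPM in Ctrl and 860 and 989.5 CPM in KO, at a log2 fold change of 0.19 ± 0.20. KO libraries were both higher by a small margin. The upstream start, which shares its promoter region with the divergent gene Wbp4, had 30.8 and 21.4 CPM in Ctrl and 22.4 and 26.8 CPM in KO, in a peak of 1293 bp. The downstream start had 88.7 and 102 CPM in Ctrl and 87.9 and 128 CPM in KO, in a peak of 4997 bp at chr14:79515058-79520054. The downstream start held more in every library, but per kb of peak the log2 difference, upstream minus downstream, was 0.42, -0.30, -0.03 and -0.31 in Ctrl 1, Ctrl 2, KO 1 and KO 2, which includes both directions.

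These starts differ in base composition. In RefSeq's promoter table (GRCm38.p6, the assembly of mm10) the 250 bases before the upstream Elf1 start hold 35 CpG dinucleotides at 71.6% GC, whereas the downstream start has 2 CpG at 43.2% GC. The median of 32851 promoters was 6 CpG at 52.4% GC. The downstream sequence, chr14:79515424-79515673 on the plus strand, is shown because it is the CpG-poor start that carries most of the Elf1 promoter signal, with CpG in capitals.
Elf1 downstream start: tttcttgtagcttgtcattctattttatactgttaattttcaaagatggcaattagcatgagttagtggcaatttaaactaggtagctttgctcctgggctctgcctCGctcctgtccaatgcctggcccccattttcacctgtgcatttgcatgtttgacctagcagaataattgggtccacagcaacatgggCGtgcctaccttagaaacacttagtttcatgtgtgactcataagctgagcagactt

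The strongest Elf1 peak outside promoters, 8243 bp at chr14:79531761-79540003, lay past the downstream start and had 162 and 164 CPM in Ctrl and 199.7 and 223 CPM in KO (log2 fold change 0.38 ± 0.26). Its groups did not overlap. The 1 member peak that was lower at an unadjusted p under 0.05 was also at Elf1, an intronic peak of 561 bp just before the downstream start (chr14:79513538-79514098), with 7.69 and 5.95 CPM in Ctrl and 2.98 and 1.44 CPM in KO. The Elf1 peak with the smallest p was narrow too, at chr14:79562626-79563029, with counts of 9 and 8 (Ctrl) and 31 and 27 (KO). Only the KO libraries took this peak through the count filter, and only the Ctrl libraries the lower one. The filter thus favoured the direction of each. Promoters of Sugt1 and Kbtbd6 put 6.46% to 7.62% of the counts into this window.

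Runx1, the DNA-binding subunit, is transcribed from a distal and a proximal start 129 kb apart. Its window (chr16:92551466-92876149) read 924 and 987 CPM in Ctrl and 1017 and 1088 CPM in KO. KO libraries were both higher, at a log2 fold change of 0.14 ± 0.20. The distal start lay in a domain of 18852 bp (chr16:92808770-92827621) with 329.8 and 363 CPM in Ctrl and 413 and 469 CPM in KO (log2 fold change 0.35 ± 0.24). The 3 peaks at the proximal start held 27.6 and 18.7 CPM in Ctrl and 34.7 and 21.6 CPM in KO, so the distal domain held 11.9 to 21.7 times as much in the 4 libraries. Per kb of peak the distal start was higher in each of them. The log2 difference was 0.61, 1.31, 0.61 and 1.47 in Ctrl 1, Ctrl 2, KO 1 and KO 2.

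The distal and proximal Runx1 sequences are shown because acetylation at these starts was so unequal, and CpG is in capitals. The proximal start has 27 CpG and 67.6% GC in its 250 bases (chr16:92697330-92697579, minus strand). The distal start has 2 CpG and 45.6% GC, and the 175 bases printed for it (chr16:92826150-92826324, minus strand), which stop before the annotated exon, hold none.
Runx1 distal start: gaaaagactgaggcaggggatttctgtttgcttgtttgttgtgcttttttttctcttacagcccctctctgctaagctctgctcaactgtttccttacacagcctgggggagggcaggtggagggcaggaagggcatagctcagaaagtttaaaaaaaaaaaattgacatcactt
Runx1 proximal start: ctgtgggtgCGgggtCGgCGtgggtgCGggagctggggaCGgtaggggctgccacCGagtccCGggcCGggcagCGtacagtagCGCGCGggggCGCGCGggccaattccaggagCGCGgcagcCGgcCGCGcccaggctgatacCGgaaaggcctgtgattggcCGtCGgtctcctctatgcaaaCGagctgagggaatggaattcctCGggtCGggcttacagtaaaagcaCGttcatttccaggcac
The Runx site TGTGGTT was searched on both strands of the 300-base promoters, which end 50 bases after the start. It occurs in 5.27% of all promoters and, among the 8 promoters that the table holds for Cbfb, Ikzf1, Bcl11b, Elf1 and Runx1, only in that of distal Runx1. It lies there in 2 copies on the opposite strand, as AACCACA (in capitals), within bases 23 to 47 after the start (chr16:92826028-92826052).
Runx1 distal element: taaacAACCACAgAACCACAagttg
The shorter core TGTGGT is contained in these copies and was found in 16.8% of all promoters. The Ets sites CCGGAAGT (3.89% of promoters) and CAGGAAGT (3.33%) and the Ikaros site TGGGAA (25.6%) were found in none of these 8 promoters. The table held no entry for Ets1, Fli1 and Ikzf3.

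**Figure D5:**
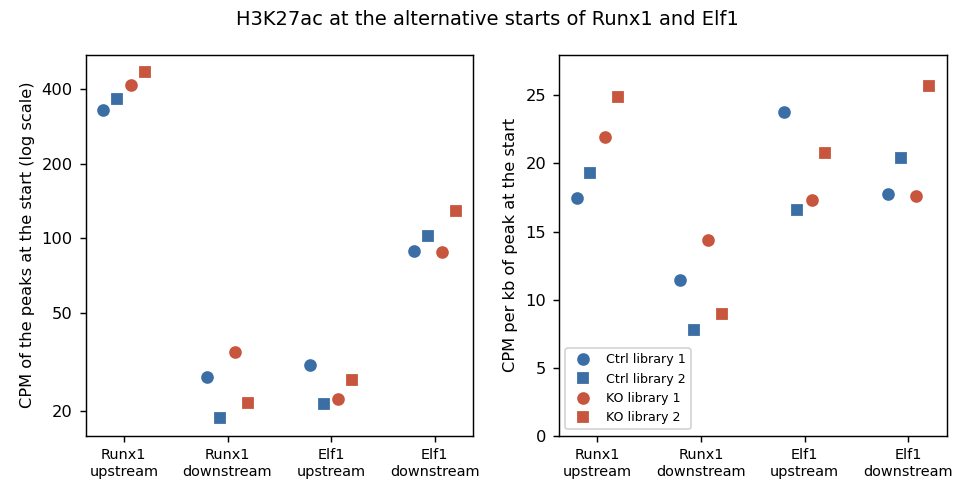
H3K27ac at the upstream and downstream starts of Runx1 and Elf1 by library, as CPM on a log axis (left) and as CPM per kb of peak (right). The distal Runx1 start exceeds the proximal start in all 4 libraries on both scales, whereas the Elf1 starts overlap per kb.

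In the Runx1 window the share of counts in promoter peaks was higher in both KO libraries than in both Ctrl libraries. Own promoter peaks held 40.0% and 39.7% of the counts in Ctrl and 45.4% and 46.1% in KO. The remaining peaks of the gene span held 54.3% and 55.6% in Ctrl and 47.9% and 48.3% in KO. The groups overlapped in neither share, and in an exact two-sided permutation test p was 0.333, the smallest that 2 libraries against 2 allow. The members did not share this direction. Own promoter shares were wholly above in KO also at Fli1, but wholly below at Ets1, Cbfb and Bcl11b, with the same p in this test. At Elf1, Ikzf1 and Ikzf3 they overlapped. Over all genes the median log2 fold change was above 0 at promoters, at 0.07, and below 0 outside them, at -0.13. Of the 64 Runx1 peaks, 49 were under 1 kb. Of the 47 tested, the KO pair was wholly above the Ctrl pair in 14.9% and wholly below it in 17.02%, close to the 16.9% and 16.4% of all peaks. The strongest peak outside promoters, 7168 bp at chr16:92798016-92805183, had 102 and 115 CPM in Ctrl and 137 and 139 CPM in KO. The smallest p belonged to a peak of 514 bp (chr16:92778836-92779349) with counts of 5 and 7 (Ctrl) and 24 and 26 (KO). Only the KO libraries took this peak through the count filter, so the filter favoured its direction.

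Cbfb, the partner of Runx1, ran opposite to the other members. Those lay in the top decile of window CPM, whereas Cbfb was near the middle. Of its 16 window peaks 13 were under 1 kb, a width at which all tested peaks had a median log2 fold change of -0.09. Its window (chr8:105120674-105267989) read 123 and 119 CPM in Ctrl and 95.8 and 92.5 CPM in KO, with no overlap and a log2 fold change of -0.36 ± 0.22 (edgeR adjusted p = 0.99998). Between 47.9% and 63.5% of these counts came from the promoters of D230025D16Rik, Tradd and Hsf4, so the gene's own peaks were a minor share. The 11 peaks at the Cbfb promoter and span summed to 53.8 and 54.5 CPM in Ctrl and 30.2 and 30.7 CPM in KO. Only 5 of the 11 passed the count filter. Over the whole window 9 peaks passed it, and in 4 of these the KO pair was wholly below the Ctrl pair and in 1 wholly above, where 16.4% and 16.9% of all tested peaks did so. The log2 fold change therefore moved with the window: it was -1.02 over the gene span with no extension (edgeR adjusted p = 0.9998), -0.51 with 20 kb added on each side and -0.15 with 100 kb.

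Counts behind this were small. The main promoter peak, chr8:105171079-105172434, had counts of 36 and 57 (Ctrl) and 26 and 46 (KO), which is 16.3 and 16.96 CPM against 9.69 and 11.02 CPM (log2 fold change -0.68 ± 0.46). The 7 peaks of the gene span had at most 19 counts in any library. They summed to counts of 62 and 97 (Ctrl) and 28 and 52 (KO), or 28.05 and 28.9 CPM against 10.4 and 12.5 CPM. Among them, chr8:105208278-105208619, chosen after its values were seen, had counts of 13 and 7 (Ctrl) and 0 in both KO libraries, and it fell short of the count filter. The strongest peak outside promoters, chr8:105183762-105184336, did not follow, with 2.71 and 4.76 CPM in Ctrl and 4.10 and 4.55 CPM in KO. The smallest p was of a peak before the start (chr8:105169101-105169523) that was higher in KO, with counts of 2 and 1 (Ctrl) and 15 and 10 (KO). That peak passed the count filter only through the KO libraries, so the filter favoured its direction. The sequence before the Cbfb start, chr8:105170424-105170673 on the plus strand, is shown because this is the weakest promoter of the group despite 25 CpG at 69.2% GC.
Cbfb start: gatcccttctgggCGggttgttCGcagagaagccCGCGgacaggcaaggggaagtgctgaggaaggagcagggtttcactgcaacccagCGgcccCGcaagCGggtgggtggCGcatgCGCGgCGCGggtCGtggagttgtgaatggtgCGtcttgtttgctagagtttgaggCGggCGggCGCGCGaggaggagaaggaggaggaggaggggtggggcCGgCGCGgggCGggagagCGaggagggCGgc

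Ikzf1 encodes Ikaros, which silences and activates lymphoid genes together with remodelling complexes. Its window (chr11:11635003-11822926) read 1109.8 and 1131 CPM in Ctrl and 1235 and 1457 CPM in KO, without overlap, at a log2 fold change of 0.26 ± 0.20. The promoter domain of 12746 bp (chr11:11685885-11698630) covered the CpG-rich start, with 44 CpG at 82% GC, and a CpG-poor start further on, with 1 CpG at 47.6% GC. It read 219 and 242 CPM in Ctrl and 222 and 316 CPM in KO, so KO 1 lay below Ctrl 2 and the groups overlapped. An intronic domain of 20617 bp at chr11:11717442-11738058 held more counts than the promoter domain but about as much per kb, 18.99 against 19.6 CPM per kb, with 313 and 356 CPM in Ctrl and 398 and 499.8 CPM in KO (log2 fold change 0.43 ± 0.24). The smallest p was of the peak just before that domain (chr11:11714677-11716953), with 28.05 and 31.8 CPM in Ctrl and 43.6 and 49.1 CPM in KO. Neither intronic peak overlapped between groups. Fignl1 promoters made 2.94% to 4.93% of the window.

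Ikzf3 encodes Aiolos, an Ikaros family member of more mature lymphocytes. Its window (chr11:98414902-98596031) read 707 and 902 CPM in Ctrl and 974 and 1282 CPM in KO. The groups did not overlap, and the log2 fold change was 0.49 ± 0.24 (edgeR adjusted p = 0.99998). It was 0.28 without KO 2, 0.32 without Ctrl 1, 0.67 without KO 1 and 0.68 without Ctrl 2. Peaks within 3 kb of its starts held little, 3.82% to 5.97% of the window counts. The one with the most counts, chr11:98541474-98544159 in an intron, had 14.9 and 27.4 CPM in Ctrl and 22.7 and 36.7 CPM in KO. The peak over the start, chr11:98545434-98547546, had 18.1 and 26.5 CPM in Ctrl and 14.5 and 32.8 CPM in KO, so the groups overlapped. Gene span peaks outside promoters made 58.0% to 62.5%. The strongest of them was a domain of 12716 bp at the 3′ end of the gene (chr11:98463247-98475962), centred 76.2 kb past the start and reaching beyond the gene's end. This domain had 135 and 177 CPM in Ctrl and 218 and 282 CPM in KO. KO was above Ctrl in both libraries, and its p was the smallest of all 250 tested member peaks (log2 fold change 0.68 ± 0.26, edgeR adjusted p = 0.998).

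Of the 38 tested Ikzf3 peaks, 33 were higher in KO, and in 15 both KO libraries were above both Ctrl libraries. None of the tested Ikzf3 peaks had both below, and 1 untested intronic peak of 408 bp did. Of all tested peaks 49.2% were higher in KO, 16.9% had the KO pair wholly above the Ctrl pair and 16.4% wholly below. Another wide intragenic peak, chr11:98486693-98492439, had 60.6 and 65.2 CPM in Ctrl and 81.2 and 108 CPM in KO (unadjusted p under 0.05). This is a crowded stretch of the genome, with Erbb2, Mien1, Grb7, Zpbp2 and Ormdl3 in the window, and promoters of other genes made 19.5% to 22.6% of its counts. At Grb7, the gene past the 3′ end of Ikzf3, the promoter peaks summed to 32.6 and 49.4 CPM in Ctrl and 51.8 and 86.5 CPM in KO. At Zpbp2, whose start lies before that of Ikzf3, the promoter peak chr11:98549267-98552076 had 64.7 and 84.5 CPM in Ctrl and 87.2 and 120.04 CPM in KO. Centred 4.87 kb before the Ikzf3 start, this peak fell outside the 3 kb limit for Ikzf3 promoter peaks. Peak position alone does not assign the 3′ domain to Ikzf3 or to Grb7.

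Bcl11b, the factor of T lineage commitment, had nearly all of its signal inside the gene. Gene span peaks outside promoters held 91.7% to 93.6% of its window (chr12:107860403-108053602), which no other protein-coding gene enters. The window read 1079 and 1351 CPM in Ctrl and 1305 and 1709 CPM in KO, so KO 1 was below Ctrl 2 and the groups overlapped (log2 fold change 0.31 ± 0.23). Its strongest peak was a domain of 16962 bp in an intron, chr12:107918059-107935020, centred 77.1 kb past the start, with 267 and 315 CPM in Ctrl and 329 and 409 CPM in KO. The main promoter peak, chr12:107999675-108002800 in an intron, had 47.1 and 48.8 CPM in Ctrl and 33.2 and 57.0 CPM in KO, with a log2 fold change of -0.08. The peak over the start, chr12:108003119-108004471, had 16.3 and 13.7 CPM in Ctrl and 13.8 and 16.3 CPM in KO, at 0.02. The smallest p was of an intragenic peak of 1397 bp at chr12:107989060-107990456, with 20.4 and 19.9 CPM in Ctrl and 30.2 and 38.1 CPM in KO.

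Other members of these families and other T cell factors were read in the same windows. Of 47 genes listed, 46 were tested, 0 were called and 0 had an unadjusted p under 0.05 by edgeR, with 32 higher and 14 lower in KO and a median log2 fold change of 0.08. The 22 other Ets genes, with a median of 9.45 CPM per kb, divided into 9 higher and 13 lower with a median of -0.03. All 18 T cell factors outside these families, among them Tcf7, Lef1, Gata3, Foxp1 and Bach2, had fitted values above 0, from 0.01 to 0.43, and 6 of them had both KO libraries above both Ctrl libraries. Of all 17694 tested windows, 8886 were higher in KO and 10.6% had the KO pair wholly above. In the top decile of CPM 88.4% were higher and 25.3% had the KO pair wholly above. Runx2 and Runx3, the other Runx genes, were at 0.30 and 0.26, with overlapping groups. Among the Ikaros genes, Ikzf4 (Eos) was at 0.30, Ikzf2 (Helios) at 0.23 and Ikzf5 at -0.02.

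The related genes with the smallest unadjusted p were Elf3, Gata3 and Foxp3. Elf3, an Ets factor of epithelia, had 75.6 and 84.5 CPM in Ctrl and 55.1 and 56.3 CPM in KO (log2 fold change -0.52 ± 0.24). Gata3, a factor of Th2 and tissue Treg cells, had 320.3 and 294 CPM in Ctrl and 365 and 421 CPM in KO (0.36 ± 0.20). Foxp3, the lineage factor of Treg cells, had 264 and 312 CPM in Ctrl and 306 and 468 CPM in KO (0.43 ± 0.26). KO was below Ctrl at Elf3 and above it at Gata3 in both libraries, whereas the Foxp3 groups overlapped.

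The genes whose windows followed the members' total most closely over the 4 libraries were Cdh23, Tbc1d2 and Iqce. Likeness was the Euclidean distance of log2 CPM centred on its mean, among 966 other genes of similar window level, whose median distance was 0.28. Cdh23 lay at a distance of 0.02 and read 839, 948, 1005 and 1215 CPM in Ctrl 1, Ctrl 2, KO 1 and KO 2. Tbc1d2 read 507, 565, 598 and 739 CPM at a distance of 0.02, and Iqce 510, 571, 615 and 748 CPM at 0.03. With 4 libraries this gives only that their order and spacing over the libraries were alike.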

How the data were processed

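H3K27ac CUT&Tag was analysed in 4 libraries, 2 Ctrl and 2 KO. The deposited table holds raw counts per merged peak. The authors trimmed reads, aligned them to mm10 with Bowtie2, kept unique reads, removed duplicates, called peaks with MACS2 against IgG, merged them and counted reads with bedtools, with versions not given in the sources used here. Peaks were called on the libraries compared, and both mates of a pair may be counted. Groups and replicate numbers come from the labels, which do not say which mice were pooled together, so p-values of windows and sums measure the spread between libraries. The edgeR p-values of single peaks rest on a spread shared over peaks, because the prior of that fit was infinite.

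Counts were summed over peaks of every GENCODE M21 protein-coding gene in its span extended 50 kb, within 3 kb of its starts, and outside promoters. Features with at least 10 counts in 2 libraries were tested with edgeR 4.0.16 (R 4.3.3, TMM, quasi-likelihood, Benjamini-Hochberg adjustment over all features, threshold 0.05), and the code was tested on simulated data. DESeq2 1.42.0, other scalings, filters, windows and leaving out each library were alternatives. For each gene the strongest promoter peak, the strongest peak outside promoters and the peak with the smallest p are named. Some other peaks under an unadjusted p of 0.05, not all of them, were added after their values were seen. The members and lists were chosen with earlier results of these data known. Promoter sequences come from RefSeq (GRCm38.p6), which held 5 of the 8 genes.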

Additional observations from a re-analysis of the deposited data

How the results depend on the processing

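DESeq2, DESeq2 size factors, total counts, the stricter count minimum and the other window lengths left 7 of 8 member windows higher in KO, as did leaving out any library (7 to 7). The number of windows called was 0 throughout, except with the replicate block, and that of promoters was 0 under every alternative. The same-numbered libraries' deviations correlated at r = 0.24, but there are only 2 pairs and the labels name no shared batch, so the numbers were not taken to pair the libraries. With the replicate block 2689 windows (1499 higher, 1190 lower), 211 peaks (152 higher, 59 lower) and 2043 sums outside promoters (584 higher, 1459 lower) were called, and 15 single member values passed, among them the windows of Ets1, Fli1, Elf1, Ikzf1, Ikzf3 and Bcl11b. The 1 peak called became 0 with DESeq2 and with at least 50 counts, 3 with the abundance offsets, and 0 to 0 without 1 library. Sums outside promoters called became 2 without a count filter, and 0 to 1 without 1 library, the 1 being without KO 1. Wide member peaks higher in KO numbered 21 to 25 without 1 library. The abundance offsets turned the log2 fold change of the Runx1 window (-0.022), the promoter sums of Elf1 (-0.088), Ikzf1 (-0.042) and Bcl11b (-0.015), and the promoter peaks of Elf1 (-0.038) and Ikzf1 (-0.085), and a promoter limit of 1 kb turned the Bcl11b sum (-0.057). The cause was not tested. Without 1 library the log2 fold change ranged from -0.18 to 0.28 for the Elf1 promoter sum, -0.060 to 0.042 for Runx1 outside promoters, -0.23 to 0.70 for the Ikzf3 and -0.23 to 0.29 for the Bcl11b promoter sums. It ranged from -0.12 to 0.43 for the Elf1, -0.052 to 0.46 for the Ikzf1 and -0.53 to 0.25 for the Bcl11b promoter peak, and from -0.13 to 0.67 for the Cbfb peak outside promoters. Of the other single values, 510 comparisons kept direction and call.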
